A study of Mus musculus with 37 samples.

Results

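The comparison described here asks whether losing 1 copy of Hdac4 does the same thing to the cortical transcriptome of a mouse with the R6/2 transgene as to that of a mouse without it. For every probe set the value computed was the log2 difference of Dble::R6/2 minus R6/2 cortex, less the log2 difference of Hdac4HET minus WT cortex. It is called the interaction below. A value of 0 means that the Hdac4 null allele had equal effects in both backgrounds, and a negative value means that the level in double mutants was lower than the separate effects add up to. The same number is the effect of the R6/2 transgene on the Hdac4HET background less its effect on the WT background. All 37 arrays of the series entered, and all 45037 probe sets, each a group of short probes for 1 transcript on an Affymetrix mouse array, were tested.

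The 4 groups were the cortices of 9 WT mice, 9 mice heterozygous for an Hdac4 null allele (Hdac4HET, HDAC4het in the sample labels), 9 R6/2 mice and 10 mice with both (Dble::R6/2), all 9 wk of age and of a mixed CBA and C57Bl/6 strain background. Each group held mice labelled male and mice labelled female. R6/2 is a transgenic line for a fragment of mutant human huntingtin made from exon 1, so it models a fragment and not the full-length gene. The null allele was present in every cell of the animal, was made in 129S cells and can carry flanking 129S sequence, and only heterozygotes could be used because mice without any Hdac4 die young. R6/2 males were crossed to Hdac4HET females. The RNA came from whole pieces of cortex, in which fewer cells of a type and less RNA per cell cannot be told apart.

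HDAC4 is a class IIa histone deacetylase with little catalytic activity of its own. It shuttles between cytoplasm and nucleus, where it binds MEF2 transcription factors and holds their target genes down together with corepressor complexes. Mutant huntingtin fragments aggregate in neurons and alter the expression of many neuronal genes, those for neuropeptides, receptors and signalling proteins of striatum and cortex among them.

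Markers of excitatory cortical layers were well above the array median on all arrays. The mean level of the 18 measured was 9.48 to 9.90 per array on the log2 scale, and array medians over all probe sets ranged from 6.16 to 6.21. On 7 arrays, however, the mean level of 25 markers of the olfactory bulb was raised, at 7.48 to 8.69 against 6.78 to 7.13 on the 30 others. An array counted as raised when this mean was above that of the highest WT array, so no WT array could count. Of the 7 raised arrays, 6 were Hdac4HET, 1 was Dble::R6/2 and 0 were R6/2, so they were unevenly spread over the groups that could hold them. On 6 arrays the sex-linked genes went against the labelled sex, with 3 of them Hdac4HET, 2 Dble::R6/2 and 1 WT. On 2 of these, Hdac4HET replicates 5 and 9, both kinds of sex-linked gene were high at once, with Xist at 11.2 and 11.7 and the mean of the Y-linked genes at 6.56 and 5.89. No other array had both, and whether RNA of more than 1 mouse was on them was not tested. The called genes named here are also given on the 30 arrays without raised bulb markers, of which 3 are Hdac4HET and 9 are Dble::R6/2.

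The interaction passed a Benjamini-Hochberg adjusted p of 0.05 with a size of more than 1.3-fold for 113 probe sets, which was 0.251% of those tested. The value was negative for 82 of them (0.182% of those tested) and positive for 31 (0.0688%). With no limit on size, 436 probe sets passed (0.968%), 220 of them positive, and 19.0% of all probe sets had an unadjusted p under 0.05. Across all probe sets the median interaction was 0.02. On the 30 arrays 1 probe set passed (0.00222%), for Lipa, while 9.80% of probe sets had an unadjusted p under 0.05. The median standard error (SE) of the interaction was 0.08 over the 37 arrays and 0.10 over the 30.

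The dominant shape of the 113 was an Hdac4 effect of opposite sign in the 2 backgrounds. In 112 of them the level moved one way from WT to Hdac4HET and the other way from R6/2 to Dble::R6/2, and all but 1 of the 82 with negative values were higher in Hdac4HET than in WT and lower in Dble::R6/2 than in R6/2. Across those 82 the median difference was 0.33 for Hdac4HET minus WT and -0.24 for Dble::R6/2 minus R6/2. Across the 31 with positive values it was -0.22 and 0.21. Opposite signs give large interactions, so this shape is a description of how the probe sets passed and not a result of its own. The 2 simple effects share no arrays, and over all 45037 probe sets they correlated at r = -0.045, a description across probe sets that are not independent of each other.

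Most of the 113 did not pass in either simple comparison. Hdac4HET against WT passed for 25 of them and for 0.291% of all probe sets, and Dble::R6/2 against R6/2 passed for 10 of them and for 0.269% of all. Neither passed for 79. Seen from the transgene, R6/2 against WT passed for 27 of the 113, against 6.08% of all probe sets, and Dble::R6/2 against Hdac4HET passed for 41, against 7.10% of all. These shares were raised by the way the 113 were found, because all the comparisons use the same arrays, and nothing is read from them.

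**Figure D1:**
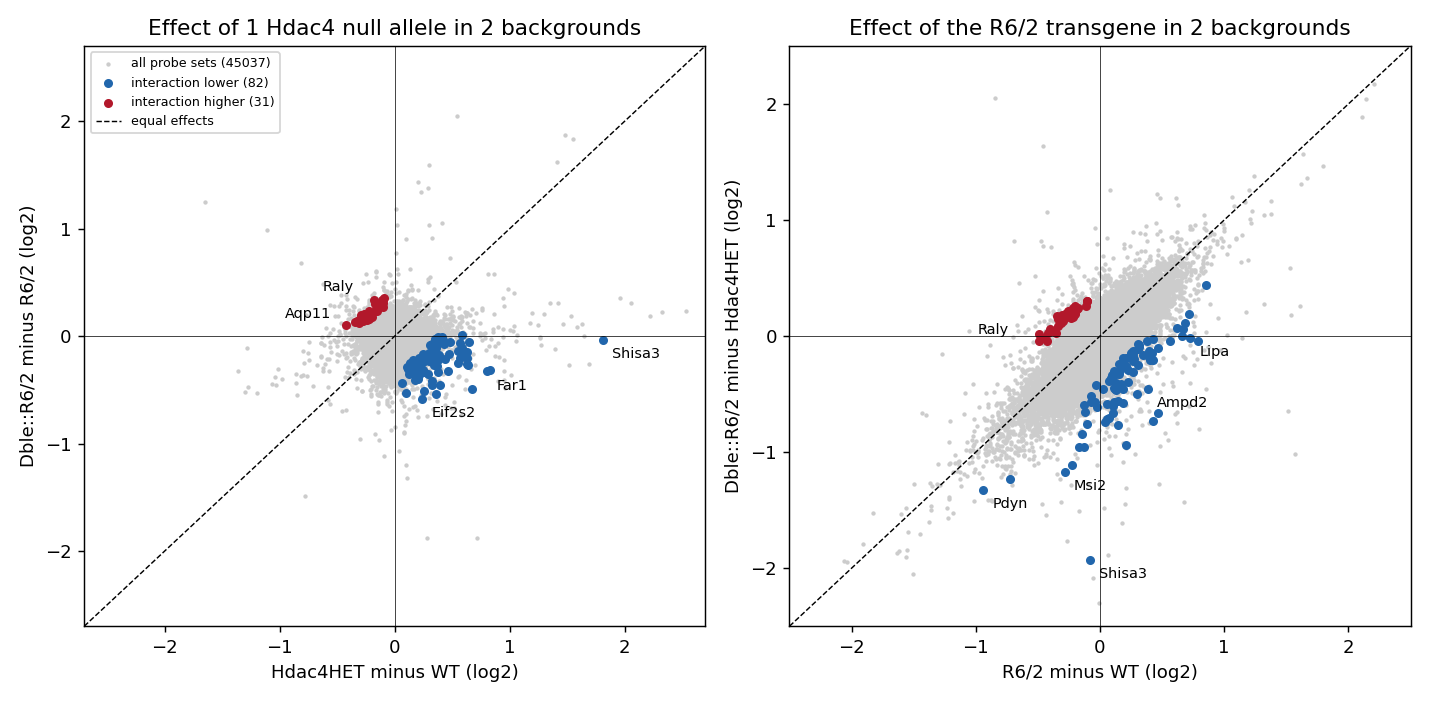
Each point is 1 probe set, with the log2 effect of the Hdac4 null allele without the transgene (horizontal) and with it (vertical) on the left, and the log2 effect of the R6/2 transgene without and with the null allele on the right. Grey points are all 45037 probe sets, blue points the 82 with a negative and red points the 31 with a positive interaction, and the dashed line marks equal effects. On the left the coloured points lie in the quadrants of opposite sign, and on the right Lipa lies near 0 on the vertical axis.

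The clearest interaction was that of Lipa, which encodes lysosomal acid lipase, the enzyme that splits cholesteryl esters and triglycerides in the lysosome. Its probe set 1423140_at had levels of 6.71 (lowest), 6.99 (median) and 7.34 (highest) in WT and of 7.12, 7.30 and 7.48 in Hdac4HET. It had levels of 7.49, 7.71 and 7.86 in R6/2 and of 7.10, 7.26 and 7.50 in Dble::R6/2. All 9 R6/2 arrays lay above all WT and all Hdac4HET arrays, and R6/2 and Dble::R6/2 arrays overlapped only at their edges. The transgene raised Lipa by 0.73 when Hdac4 was intact (adjusted p = 3.1e-11), and with 1 null allele the difference was -0.02 (adjusted p = 0.87). The interaction was -0.75 ± 0.09 (SE, adjusted p = 5.9e-05).

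Lipa passed in each of the 37 fits that left out 1 array, with values from -0.79 to -0.72. It also passed on the 30 arrays, at -0.78 (adjusted p = 0.010), and the raised and other Hdac4HET arrays had overlapping levels of 7.12 to 7.48 and 7.29 to 7.34. It did not pass when the arrays against their labelled sex were left out as well. The gene's 2 other probe sets behaved differently. The probe set 1450872_s_at had an interaction of -0.15 ± 0.06 (adjusted p = 0.13) and 1423141_at one of -0.14 ± 0.09 (adjusted p = 0.38), so the result holds for 1 probe set of the gene's 3.

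The next was Ampd2, which encodes an AMP deaminase that turns AMP into IMP. Its probe set 1438941_x_at had levels of 10.67, 10.78 and 11.10 in WT and of 10.84, 11.15 and 11.68 in Hdac4HET, as lowest, median and highest. Levels were 11.13, 11.24 and 11.34 in R6/2 and 10.47, 10.79 and 11.02 in Dble::R6/2. R6/2 and Dble::R6/2 arrays did not overlap, and neither did R6/2 and WT. The transgene raised this probe set by 0.39 with intact Hdac4 (adjusted p = 0.00015) and lowered it by 0.46 with 1 null allele (difference -0.46, adjusted p = 8.2e-06).

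The interaction of Ampd2 was -0.85 ± 0.11 (SE, adjusted p = 8.6e-05), and it passed in all 37 fits with 1 array left out. Without the raised arrays it was -0.63 with an adjusted p of 0.055. The Hdac4HET arrays with raised bulb markers stood at 11.12 to 11.68 and the 3 others at 10.84 to 11.14. The gene's other probe set, 1426757_at, had an interaction of -0.10 ± 0.07 (adjusted p = 0.43).

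The proximal promoters of Lipa and Ampd2 are shown because these genes had the lowest adjusted p of all, and that of Raly as an example of a positive value that passed in all 37 fits with 1 array left out. The sequences are from RefSeq on build GRCm38.p6 and run 5′ to 3′ on the gene's strand from 250 bases before to 50 bases after the annotated start. Capitals mark matches of the GC box, GGGCGG, on either strand. Lipa lies on the minus strand at chr19:34527425-34527724, Ampd2 on the minus strand at chr3:108085353-108085652 (the first of 2 entries) and Raly on the plus strand at chr2:154790860-154791159.
Lipa: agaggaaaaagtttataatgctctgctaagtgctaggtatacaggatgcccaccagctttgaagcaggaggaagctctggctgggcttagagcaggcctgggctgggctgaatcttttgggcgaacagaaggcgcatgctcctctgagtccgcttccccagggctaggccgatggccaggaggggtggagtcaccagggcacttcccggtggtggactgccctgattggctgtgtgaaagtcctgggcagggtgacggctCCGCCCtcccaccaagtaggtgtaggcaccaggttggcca
Ampd2: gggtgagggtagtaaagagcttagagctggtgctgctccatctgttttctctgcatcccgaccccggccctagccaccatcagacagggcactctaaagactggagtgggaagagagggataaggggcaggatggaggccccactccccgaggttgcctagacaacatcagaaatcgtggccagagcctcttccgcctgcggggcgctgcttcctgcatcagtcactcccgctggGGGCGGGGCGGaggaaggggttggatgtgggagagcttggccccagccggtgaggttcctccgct
Raly: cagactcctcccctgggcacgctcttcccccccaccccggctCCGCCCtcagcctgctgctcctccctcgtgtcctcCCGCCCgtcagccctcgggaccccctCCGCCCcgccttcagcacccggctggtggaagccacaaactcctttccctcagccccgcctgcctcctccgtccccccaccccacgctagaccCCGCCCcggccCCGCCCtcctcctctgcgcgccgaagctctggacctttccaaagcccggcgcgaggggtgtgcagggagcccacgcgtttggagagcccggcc

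The GC box had 1 match in the Lipa, 2 overlapping matches in the Ampd2 and 5 in the Raly promoter. It was present in 35.9% of 27025 promoters of the same length, 1 per gene. Of the genes with called probe sets, it was in 25 of 40 matched promoters for negative values and 9 of 20 for positive ones. Further motifs were searched on both strands. CCAAT was in 19 of the 40 and 8 of the 20 (37.9% of all), the E-box CACGTG in 6 and 1 (7.24% of all), the cyclic AMP element TGACGTCA in 1 and 1 (1.88% of all), and the MEF2 site in 0 and 1 (3.26% of all). In the promoters printed, CCAAT had 1 match, in Lipa, the last 3 motifs had 0, and no match of 1 motif overlapped one of another. The median GC content was 63.2% for the 40, 58.7% for the 20 and 52.7% for all. These are descriptions of letters in 1 window.

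Lipa was raised by the transgene when Hdac4 was intact, and the same comparison did not pass when 1 allele was missing. R6/2 against WT passed upward and Dble::R6/2 against Hdac4HET did not pass for 15 of the 82 probe sets with negative values, and for 1.71% of all probe sets. The choice of the 82 uses the same arrays and raises this count, so it is a description. The 15 include probe sets of Mme, which encodes the peptide-degrading protease neprilysin, of Insm1, a zinc finger transcription factor of neuroendocrine and neural precursors, and of Mtus1, which encodes a protein of microtubules. Mme was raised by 0.66 with intact Hdac4, with a difference of 0.00 on the Hdac4HET background. For Insm1 the same values were 0.68 and 0.11, and for Mtus1 (1436501_at) 0.43 and -0.03. Mtus1 was 1 of 4 genes with 2 called probe sets, at -0.46 and -0.41, and both passed in all 37 fits with 1 array left out. On the 30 arrays Mme had -0.57, Insm1 -0.51 and Mtus1 -0.40 and -0.34, none of them called.

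Eif2s2 encodes a subunit of the translation initiation factor eIF2. Its probe set 1441023_at had levels of 5.39, 5.58 and 6.22 in WT, 5.53, 5.93 and 6.19 in Hdac4HET, 5.90, 6.54 and 6.97 in R6/2 and 5.41, 5.92 and 6.31 in Dble::R6/2. R6/2 was highest but overlapped with each other group. The interaction was -0.83 ± 0.17 (adjusted p = 0.018), and -0.90 without the raised arrays (adjusted p = 0.22). Another probe set of the gene, 1417712_at, had a value of -0.07 ± 0.04 (adjusted p = 0.41) at a mean level of 11.2, against 5.965 for 1441023_at. The gene's uncalled probe sets ran from -0.13 (1448820_a_at) to 0.20 (1448819_at).

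Far1 encodes a fatty acyl-CoA reductase that makes the fatty alcohols of ether lipids. Its probe set 1426371_at had levels of 8.38, 8.57 and 9.44 in WT and 9.25, 9.47 and 9.90 in Hdac4HET. It had levels of 8.48, 9.14 and 9.74 in R6/2 and 8.35, 8.70 and 9.59 in Dble::R6/2. At or above the lowest Hdac4HET array lay all 9 of that group, 2 of the WT, 4 of the R6/2 and 3 of the Dble::R6/2 arrays, so all groups overlapped. The interaction was -1.13 ± 0.25 (adjusted p = 0.030), and 1453550_a_at of the same gene also passed at -0.71. A further one, 1435315_s_at, was at -0.13 ± 0.05 (adjusted p = 0.16). The value of 1426371_at was -1.31 on the 30 arrays (adjusted p = 0.22).

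**Figure D2:**
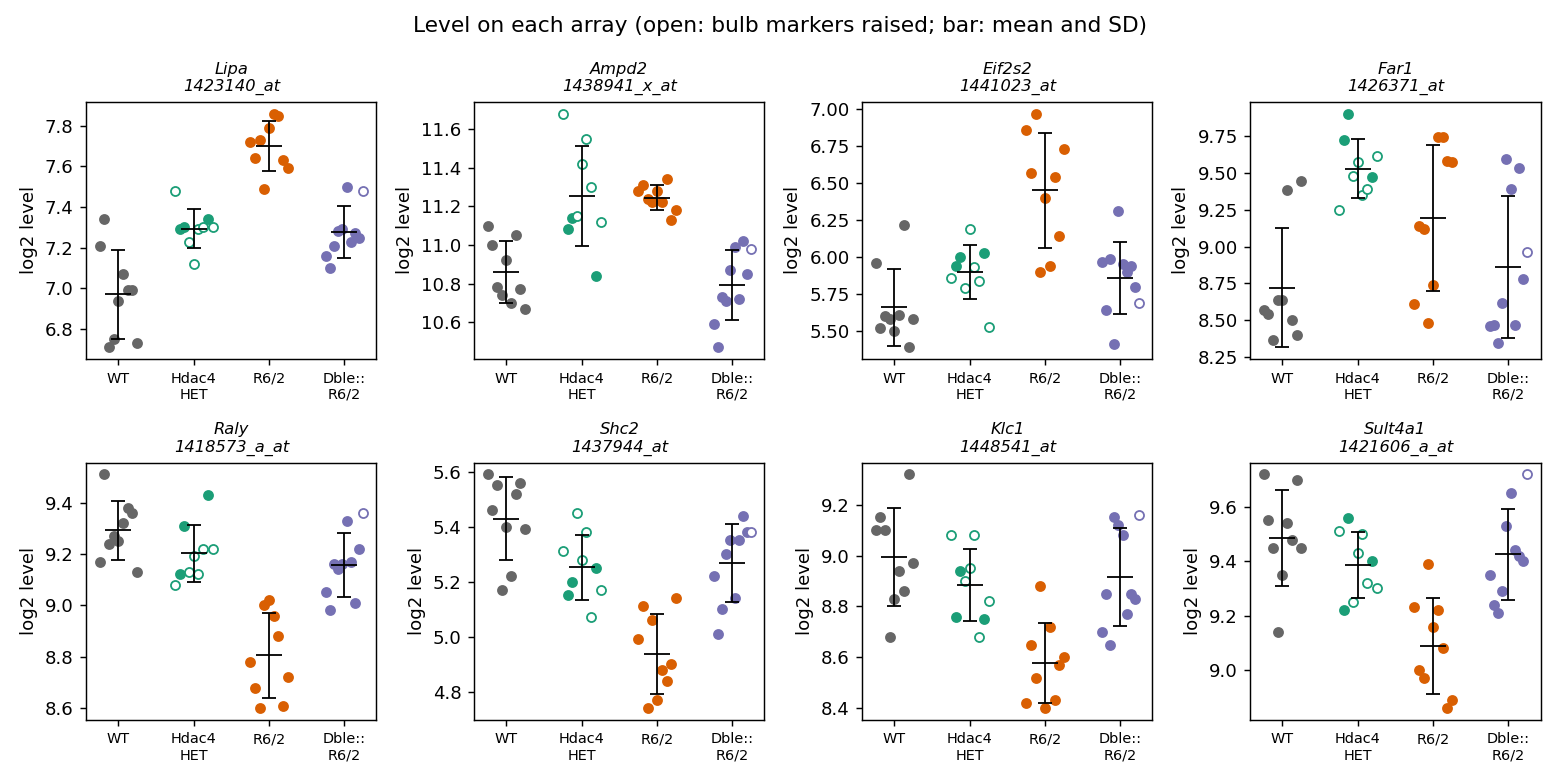
Log2 level (vertical) on each of the 37 arrays by group (horizontal) for 8 probe sets, 4 with a negative interaction (top) and 4 with a positive one (bottom), with the vertical range set per panel. Points are arrays, open points the 7 arrays with raised bulb markers, and bars the mean and SD. Lipa is highest in R6/2 and Raly, Shc2, Klc1 and Sult4a1 are lowest there, while the Dble::R6/2 arrays lie near the Hdac4HET arrays in these 5.

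Among the 31 positive values, R6/2 against WT passed downward and Dble::R6/2 against Hdac4HET did not pass for 7, and for 0.726% of all probe sets, again a description. Raly encodes an RNA-binding protein of the heterogeneous nuclear ribonucleoprotein family. Its probe set 1418573_a_at had levels of 9.13, 9.27 and 9.51 in WT, 9.08, 9.19 and 9.43 in Hdac4HET, 8.60, 8.78 and 9.02 in R6/2 and 8.98, 9.16 and 9.36 in Dble::R6/2. All R6/2 arrays lay below all WT and Hdac4HET arrays. The transgene lowered Raly with intact Hdac4 (difference -0.49, adjusted p = 1.4e-08), the difference with 1 null allele was -0.04 (adjusted p = 0.60), and the interaction was 0.44 ± 0.08 (adjusted p = 0.0094).

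Shc2, an adaptor protein that couples receptor tyrosine kinases to their signalling in neurons, had the same form. Levels were 5.17, 5.46 and 5.59 in WT, 5.08, 5.25 and 5.45 in Hdac4HET, 4.74, 4.90 and 5.14 in R6/2 and 5.01, 5.32 and 5.44 in Dble::R6/2. R6/2 lay below WT without overlap. The transgene difference was -0.49 with intact Hdac4 (adjusted p = 1.3e-07) and 0.01 with 1 null allele (adjusted p = 0.89), and the interaction was 0.51 ± 0.09 (adjusted p = 0.0088).

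Klc1, a light chain of the motor kinesin, and Sult4a1, a sulfotransferase family member found mainly in brain, were also among the 7. Klc1 had medians of 8.97 in WT, 8.90 in Hdac4HET, 8.57 in R6/2 and 8.85 in Dble::R6/2, and an interaction of 0.45 ± 0.11 (adjusted p = 0.039). Sult4a1 had medians of 9.48, 9.40, 9.09 and 9.41 in the same order and an interaction of 0.43 ± 0.10 (adjusted p = 0.034). In both genes the groups overlapped. Without the raised arrays the values of Raly, Shc2, Klc1 and Sult4a1 were 0.34, 0.55, 0.49 and 0.39, with adjusted p from 0.17 to 0.33.

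Other probe sets of these genes did not always share the value. Klc1 1417005_at had an interaction of -0.07 ± 0.03 (adjusted p = 0.27), and Sult4a1 1433714_at one of 0.06 ± 0.04 (adjusted p = 0.40). The other probe set of Raly had -0.10 ± 0.10. In Shc2 the values above are those of 1437944_at, with a mean level of 5.22. The gene's brighter probe sets 1438598_at (5.55) and 1441356_at (5.79) had 0.00 ± 0.08 (adjusted p = 0.99) and -0.03 ± 0.08 (adjusted p = 0.89).

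The largest positive value belonged to Aqp11, a water channel of the endoplasmic reticulum. Its levels were 7.83, 8.52 and 8.61 in WT, 7.66, 8.01 and 8.23 in Hdac4HET, 7.71, 8.01 and 8.28 in R6/2 and 7.93, 8.17 and 8.28 in Dble::R6/2. WT had the highest median, and all groups overlapped. The interaction was 0.52 ± 0.13 (adjusted p = 0.039), and another probe set of Aqp11 had 0.38 ± 0.11 (adjusted p = 0.068). The first had 0.53 on the 30 arrays (adjusted p = 0.29).

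The other 7 positive genes named by rule were Spaar (0.49), which encodes a small peptide that restrains mTORC1 signalling, Lypd4 (0.48), Cyp2d40 (0.47), Pcca (0.47), a subunit of propionyl-CoA carboxylase, 1500035N22Rik (0.46), Wfdc2 (0.46) and Got1l1 (0.45). Adjusted p ranged from 0.012 for Spaar to 0.048 for 1500035N22Rik. Of the 37 fits with 1 array left out, Spaar, Cyp2d40 and Pcca passed in all, Got1l1 in 25, Wfdc2 in 18, Lypd4 in 17 and 1500035N22Rik in 12. On the 30 arrays these 7 values ran from 0.37 for Got1l1 to 0.61 for 1500035N22Rik, and 0 passed. The other Pcca probe set had an interaction of 0.01 ± 0.05, and that of Got1l1 0.29 ± 0.07 (adjusted p = 0.030). Vegfd, which encodes a growth factor of lymphatic vessels, had 2 called probe sets at 0.43 and 0.41, with 0.51 and 0.38 on the 30 arrays. Of the 7 genes, Spaar had a mean level of 4.04, Lypd4 4.37, Got1l1 4.39, Pcca 4.395 and Cyp2d40 4.65. Wfdc2 had a mean level of 5.72 and 1500035N22Rik 6.93, against a median level of 6.19 over all probe sets. Of the 31 called probe sets with positive values 9 were above this median, and of the 82 with negative values 53 were.

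Dble::R6/2 against Hdac4HET passed downward and R6/2 against WT did not pass for 36 of the 82 negative probe sets, and for 2.77% of all probe sets, a count that the choice of the 82 raises. With intact Hdac4 the difference between R6/2 and WT was above 0 for 22 of the 36 and below 0 for 14. Shisa3, Hey2 and Map3k1 are among the 36, and 15 of them kept under 50% of their interaction on the 30 arrays. Msi2 encodes an RNA-binding Musashi protein of stem cells and neurons. Its probe set 1435521_at had levels of 7.11, 7.44 and 7.97 in WT, 7.26, 7.75 and 8.33 in Hdac4HET, 6.84, 7.02 and 7.93 in R6/2 and 5.81, 6.68 and 7.29 in Dble::R6/2. Dble::R6/2 reached lowest but overlapped with R6/2, and the interaction was -0.89 ± 0.23 (adjusted p = 0.048). Msi2 passed in 13 of the 37 fits with 1 array left out, and another of its probe sets, 1436818_a_at, had -0.11 ± 0.06. The value was -0.83 on the 30 arrays (adjusted p = 0.34).

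Gprin3, which encodes a regulator of neurite growth, passed in 36 of those 37 fits. Levels were 6.60, 7.14 and 7.56 in WT, 7.01, 7.54 and 7.74 in Hdac4HET, 6.63, 7.01 and 7.30 in R6/2 and 5.95, 6.64 and 6.89 in Dble::R6/2. The transgene difference was -0.17 with intact Hdac4 (adjusted p = 0.31) and -0.95 with 1 null allele (adjusted p = 5.4e-08), and the interaction was -0.79 ± 0.18 (adjusted p = 0.030), with -0.64 on the 30 arrays (adjusted p = 0.39). Smim10l1 (-1.17 ± 0.29, adjusted p = 0.040) and 5530601H04Rik (-0.76 ± 0.16, adjusted p = 0.020) were also lowest in Dble::R6/2 by their medians. On the 30 arrays they had -1.58 and -0.46, neither called. The other probe sets had -0.23, -0.20 and 0.09 in Smim10l1 and -0.23 and -0.08 in 5530601H04Rik.

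Pdyn, the precursor of the opioid peptide dynorphin, had an interaction on top of a large transgene effect. Levels were 6.49, 6.85 and 7.17 in WT, 7.07, 7.25 and 7.40 in Hdac4HET, 5.78, 5.88 and 6.17 in R6/2 and 5.71, 5.92 and 6.05 in Dble::R6/2. The arrays with the transgene all lay below those without it. The transgene difference was -0.94 with intact Hdac4 and -1.32 with 1 null allele. The interaction of -0.38 ± 0.09 (adjusted p = 0.040) came with a difference of 0.35 between Hdac4HET and WT and of -0.04 between Dble::R6/2 and R6/2, and it passed in 17 of 37 fits with 1 array left out. On the 30 arrays it was -0.31 (adjusted p = 0.43).

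The most negative value of all that passed was that of Shisa3, which encodes a membrane protein that dampens Wnt and FGF receptors and is a bulb marker on the list used here. Its probe set 1438884_at had levels of 3.60, 3.69 and 4.08 in WT, 3.70, 5.35 and 7.44 in Hdac4HET, 3.49, 3.73 and 3.89 in R6/2 and 3.40, 3.68 and 3.89 in Dble::R6/2. The 6 Hdac4HET arrays with raised bulb markers had levels of 5.26 to 7.44, and the 3 others of 3.70 to 3.97. The interaction was -1.85 ± 0.45 (adjusted p = 0.040) over the 37 arrays and -0.15 over the 30 (unadjusted p = 0.24).

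The remaining named genes with larger levels in Hdac4HET went the same way. Hey2, a repressor downstream of Notch, had -0.79 over 37 and -0.33 over 30 arrays. Map3k1, a kinase of the MAP kinase cascade, had -0.70 and -0.23. Dlx2, a homeobox factor of interneuron and bulb precursors, had -0.64 and -0.19, and Nav2, a neuron navigator protein, -0.77 and -0.47. In Map3k1 the raised Hdac4HET arrays stood at 6.20 to 7.07 and the others at 5.88 to 6.01, and in Dlx2 at 7.39 to 8.21 and 6.99 to 7.18. In Hey2 and Nav2 the raised and other Hdac4HET arrays overlapped. With all 37 arrays kept and the bulb marker mean as a covariate, the interaction was -0.54 for Shisa3, -0.31 for Hey2, -0.26 for Map3k1, -0.19 for Dlx2 and -0.47 for Nav2, with adjusted p from 0.12 to 0.27. Dlx2 passed in 9 of the 37 fits with 1 array left out. Dlx2 and another probe set of Shisa3 are among the 25 markers whose mean picked the raised arrays and formed the covariate. The smaller values of both genes on the 30 arrays and with the covariate follow in part from that.

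Over all 113, each kept its sign on the 30 arrays and 95 had an unadjusted p under 0.05 there, against the 9.80% of all probe sets. The 30 arrays are part of the 37 that chose the 113, so these counts are in large part set by that choice and are given as a description. The median share of the value that was kept was 86.2%. It was under 50% for 19 probe sets, all with negative values and 14 of them called upward in Hdac4HET against WT, and at least 75% for 77. All 31 positive values kept more than 50%. The 7 arrays include 6 of the 9 Hdac4HET arrays, so leaving them out also lowers the number of arrays. The covariate fit keeps all 37. In it 153 probe sets passed, 42 of the 113 among them, and 0 of the 19 that kept under 50%.

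**Figure D3:**
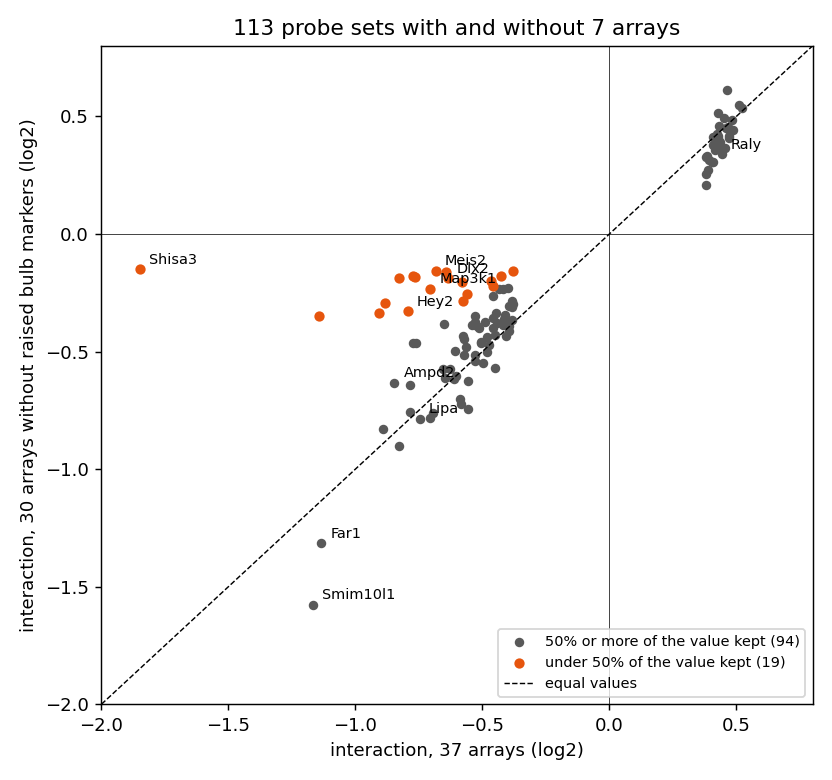
The interaction of the 113 called probe sets over all 37 arrays (horizontal, log2) and over the 30 arrays without raised bulb markers (vertical, log2), with a dashed line for equal values. Orange points are the 19 that kept under 50% of their value, Shisa3, Meis2, Dlx2, Map3k1 and Hey2 among them, and grey points are the 94 others.

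Most of the genes had probe sets that differed in call. The 113 held 84 probe sets with 1 gene symbol, for 80 genes, and 69 of these genes had at least 1 other probe set that did not pass. The interaction of the brightest such probe set had the same sign as the called one in 58 of the 69. Its smaller size follows from how the 2 were chosen and is not compared. This uncalled probe set was brighter than the called one in 46 of the 69. Over the 69 the median levels were 8.11 for the uncalled and 6.80 for the called ones. Picking the brightest uncalled probe set favours a high level, but many calls were on a dimmer probe set of their gene. Besides Mtus1, Far1 and Vegfd, the fourth gene with 2 called probe sets was Sox4, a transcription factor of immature neurons, at -0.46 and -0.44, with -0.26 and -0.24 on the 30 arrays.

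Of 488 genes on 27 lists for pathways and cell types, each measured by its brightest probe set, 2 were called, Dlx2 and Pdyn. That is 0.41%, against 0.251% of all probe sets, and nothing is read from so few. The 25 bulb markers had a median interaction of -0.49, against 0.02 for all probe sets. All 25 were negative and 15 had an unadjusted p under 0.05. Their median was 0.00 on the 30 arrays. The 7 raised arrays were picked by the mean of these same 25 markers, and 6 of them are Hdac4HET. Both medians restate that choice and are a description. The 16 striatal-enriched signalling genes, among them Pde10a and Drd2, had a median of -0.25 with all 16 negative, 1 called and 7 at an unadjusted p under 0.05, and -0.13 on the 30 arrays. These genes are also expressed in bulb and in the striatum beneath the cortex, and their mean level was 9.60 to 10.0 in Hdac4HET against 9.07 to 9.84 in WT. The part of either tissue in the list's median was not tested.

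The list of 24 chromatin regulators and RNA processing factors was chosen, like the other lists, with earlier results of these data known. Its counts are therefore a description. Of the members 22 were negative, against 44.8% of all probe sets. Of the 24, 0 were called and 11 had an unadjusted p under 0.05, against 19.0% of all, and on the 30 arrays 4 did, against 9.80%. The list's median was -0.16, and -0.06 on the 30 arrays. Kmt2a, a histone methyltransferase, had -0.27 ± 0.07 (adjusted p = 0.041, below the limit on size) and Bmi1, a Polycomb protein, -0.16 ± 0.04 (adjusted p = 0.052). The mean level of the list was 9.44 to 9.64 in WT, 9.53 to 9.68 in Hdac4HET, 9.70 to 9.81 in R6/2 and 9.51 to 9.72 in Dble::R6/2, so R6/2 stood above WT and Hdac4HET without overlap and Dble::R6/2 overlapped with every other group.

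Markers of choroid plexus, meninges and blood had a median of 0.22 with 10 of 15 positive and 0 called, and 0.01 on the 30 arrays. No member was called among the 11 histone deacetylases (median 0.01), the 14 MEF2 factors and neuronal MEF2 targets (median -0.09, 8 negative), the 17 genes of the REST complex and its targets (-0.03), the 30 immediate early genes (-0.05), the 28 genes of the respiratory chain (0.00) or the 20 synaptic receptor and scaffold genes (0.01). In the order of these 6 lists, 3, 1, 3, 1, 3 and 5 members had an unadjusted p under 0.05, against 19.0% of all probe sets. On the 30 arrays the counts were 1, 3, 1, 2, 3 and 2, against 9.80% of all. Nothing is read from counts this small. Heat shock proteins and chaperones had 18 of 21 negative, against 44.8% of all probe sets, with a median of -0.04 and 0 called. Their median was also -0.04 on the 30 arrays. Cholesterol synthesis genes had 14 of 17 positive, against 24864 of all 45037, with a median of 0.04 and 0 called. On the 30 arrays their median was -0.05. Of the 21 and the 17, 5 and 2 had an unadjusted p under 0.05, and nothing is read from these counts. Hspa1b, an inducible chaperone, had -0.30 ± 0.11 (adjusted p = 0.13).

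Some further list members that missed the adjusted p threshold are given here, and Syt5, Homer2 and Nrgn were also below the limit on size. Spink8, a marker of hippocampal pyramidal cells, had 0.81 ± 0.22 (adjusted p = 0.054), and Syt5, a synaptotagmin of vesicles, 0.26 ± 0.07 (adjusted p = 0.050). Homer2, a scaffold of postsynaptic glutamate receptors, had -0.28 ± 0.08 (adjusted p = 0.060). Nrgn, a calmodulin-binding postsynaptic protein, had 0.24 ± 0.08 (adjusted p = 0.092).

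**Figure D4:**
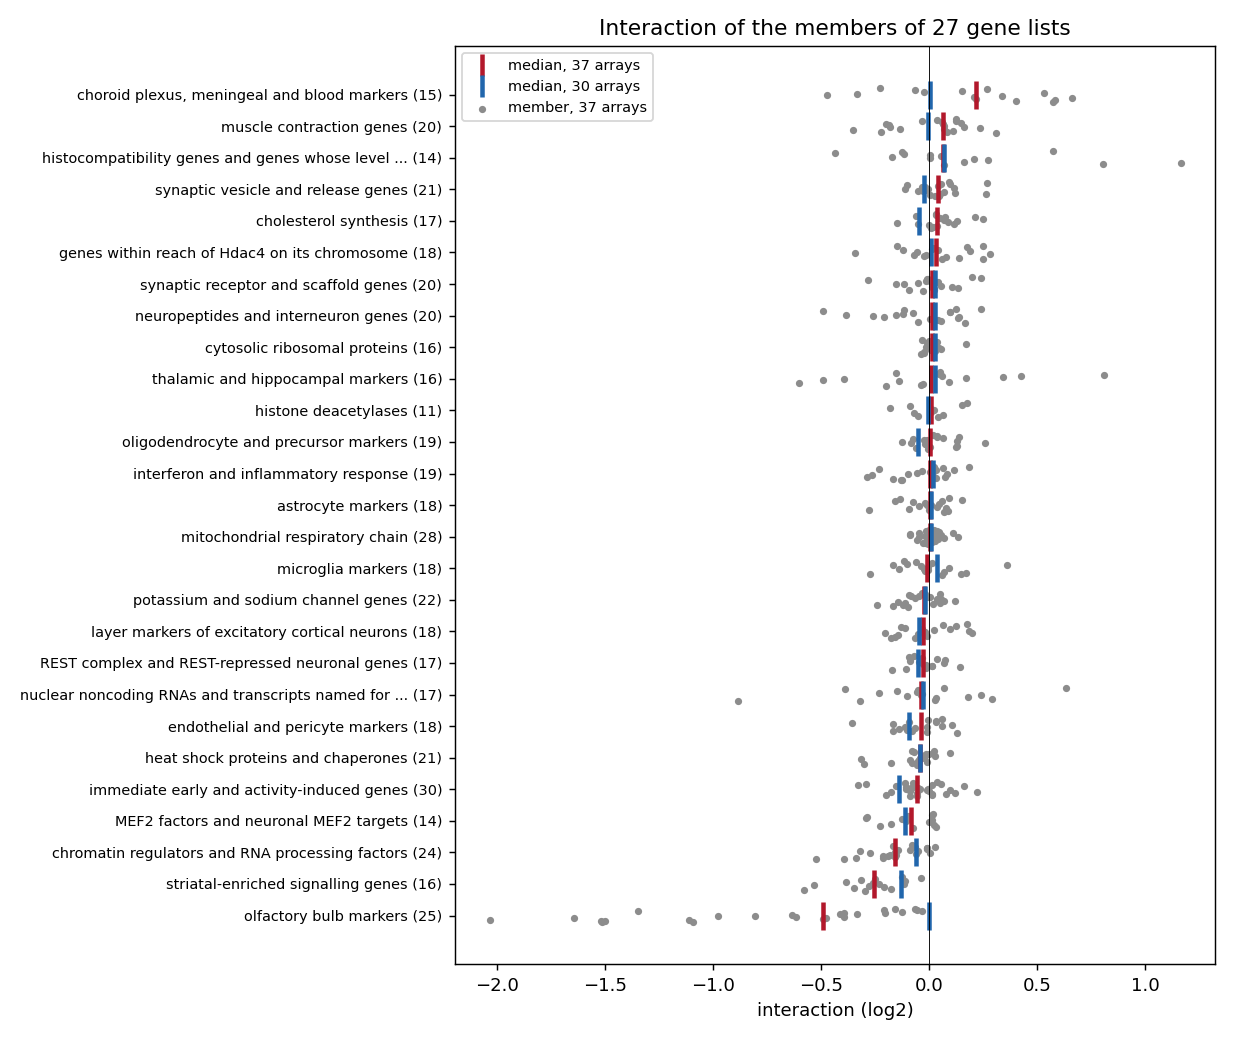
The interaction (horizontal, log2) of the members of 27 gene lists (vertical, with the number measured), 1 grey point per member over the 37 arrays, with red marks for the list's median over 37 arrays and blue marks for that over 30. The bulb markers lie furthest to the left, at -0.49. Their blue mark is at 0.00, but the 30 arrays were picked by the mean of these same markers. Most other medians lie near 0 under both.

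Hdac4 itself was lower with the null allele in both backgrounds, and how equal the 2 effects were differed between its probe sets. The brightest probe set, 1454693_at, had levels of 8.28, 8.50 and 8.64 in WT, 7.80, 7.91 and 8.02 in Hdac4HET, 8.31, 8.43 and 8.55 in R6/2 and 7.70, 7.77 and 7.98 in Dble::R6/2. The null allele lowered it without overlap in both backgrounds, and the interaction was -0.07 ± 0.06 (adjusted p = 0.53). On 1436758_at the difference was -0.43 without the transgene and -0.69 with it, and this interaction of -0.26 ± 0.06 had an adjusted p of 0.036 at a size below 1.3-fold. The probe set 1447566_at had 0.02 ± 0.08.

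Pam and Prm1 were examined as further genes tied to the null allele. Pam, an enzyme that amidates neuropeptides, lies on the chromosome of Hdac4 and rose by 0.48 without and 0.73 with the transgene, with an interaction of 0.25 ± 0.06 (adjusted p = 0.040, below 1.3-fold). Prm1, a protamine of sperm, rose with the null allele in both backgrounds on 2 of its 3 probe sets. Its interactions were 0.07, 0.21 and 0.28 on the 3 probe sets, with adjusted p of 0.55, 0.31 and 0.23. The last of these, on 1439379_x_at, differed between fits. Without the raised arrays it was 0.52 (adjusted p = 0.16). With the bulb marker mean as a covariate it was 0.52 and passed (adjusted p = 0.023). In the same fits 1437054_x_at had 0.05 and 0.19, and 1415955_x_at had -0.01 and 0.02. Among 257 probe sets of genes that start within 10 Mb of Hdac4 on chromosome 1, the interaction passed for 1, of Spata3 at 0.41, and their median was 0.03. Over all probe sets 0.251% passed, and nothing is read from 1 call. Of the 257, 56 had an unadjusted p under 0.05, against 19.0% of all probe sets.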

How the data were processed

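Cortex RNA of 37 mice was measured on Affymetrix whole-genome mouse arrays, 1 array per labelled mouse. The authors deposited log2 values, 1 per probe set and array, which were used as deposited. No label or method used here names the summary and scaling steps behind them. The methods state smaller groups after a quality filter and do not name the excluded arrays, and the 37 labelled arrays all entered. Groups came from the sample labels, and nothing says whether littermates were shared. Precision is set by the array numbers per group. Of 45037 probe sets 34945 had 1 symbol in the platform annotation (18193 genes), 932 several and 9160 none here.

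A linear model of the 4 groups was fitted in R 4.3.3 with limma 3.58.1 (lmFit, then eBayes with a trend), and every adjusted p is Benjamini-Hochberg over all probe sets tested. Called means an adjusted p under 0.05 and more than 1.3-fold. The methods name a test for pairs of groups and none for an interaction. The fit was tested on simulated data with known interactions. Bulb-raised arrays and arrays against their labelled sex were found from marker genes. Lists, 27 with 537 genes of which 488 were measured, and all members were chosen with earlier results of these data known.

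Genes were named by rule as the 12 highest and 12 lowest called values, up to 8 per direction also called without the bulb-raised arrays, up to 4 called members of each list or otherwise the 2 with the lowest p, and Hdac4, Pam and Prm1, up to 45 in all. Mme, Insm1, Mtus1, Vegfd, Sox4, Meis2, Spata3, Pde10a and Drd2 were named after their values were seen. Alternatives are given in the closing section. Other ages were not analysed here. Promoters came from RefSeq, and figures from Python 3.11.15 with matplotlib 3.10.9.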

Additional observations from a re-analysis of the deposited data

Results flagged for a closer look

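By the limma test of the interaction itself, the effect of the Hdac4 null allele differed between the 2 backgrounds for 1 probe set in each of 26 named genes. These genes were named because that probe set passed this test, so the count is not a result of its own. Values were negative for Shisa3 (-1.85), Smim10l1 (-1.17), Far1 (-1.13), Msi2 (-0.89), Ampd2 (-0.85), Eif2s2 (-0.83), Hey2 (-0.79), Gprin3 (-0.79), Nav2 (-0.77), 5530601H04Rik (-0.76), Lipa (-0.75), Map3k1 (-0.70), Dlx2 (-0.64) and Pdyn (-0.38). They were positive for Aqp11 (0.52), Shc2 (0.51), Spaar (0.49), Lypd4 (0.48), Cyp2d40 (0.47), Pcca (0.47), 1500035N22Rik (0.46), Wfdc2 (0.46), Got1l1 (0.45), Klc1 (0.45), Raly (0.44) and Sult4a1 (0.43).

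Single arrays stood apart from the rest of their group in 5 of 120 group and probe set combinations examined for these genes, Hdac4 and Pam. Chance gives about 1 in 20, so the share is not above chance. They were WT replicate 8 for 5530601H04Rik (4.91), Hdac4HET replicate 4 for Spaar (3.70) and Cyp2d40 (4.36), Dble::R6/2 replicate 10 for Dlx2 (7.92) and Dble::R6/2 replicate 7 for Pdyn (5.71). Hdac4HET replicate 4 and Dble::R6/2 replicate 10 are arrays with raised bulb markers.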

How the results depend on the processing

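The count of 113 called probe sets depended on the arrays used. Without the 7 bulb-raised arrays 1 was called (0 higher, 1 lower, 1 at any size), without the 6 arrays against their labelled sex 3 (0 higher, 3 lower, 3 at any size), and without either set 0 in every class by limma, with 4250 at an unadjusted p under 0.05. Array quality weights gave 283 (63 higher, 220 lower, 1246 at any size) and no fold threshold 436 (220 higher, 216 lower). The bulb marker mean as a covariate gave 65 higher and shared 42 calls with the 113. Probe sets above the median level gave 10 higher. Quantile normalization turned the split at any size to 327 higher and 180 lower. The replicate block gave 78 called, 17 of them higher, and 208 at any size. Same-numbered arrays deviated together at a median r of 0.01, with 14 of 54 pairs over 0.1 and the highest at 0.22. The median was 0.00 for arrays of other numbers. Medians cannot show whether some numbers pair mice, and this was not tested further.

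With each array left out in turn, counts ran from 35 to 262 called, 11 to 74 higher, 24 to 188 lower and 99 to 1056 at any size. The first moved by over 1.5 times for 17 of 37 arrays. It was 63, 53, 61 and 262 without WT replicates 1, 3, 5 and 7, and 65, 237, 188, 35, 75 and 62 without Hdac4HET replicates 1, 2, 3, 5, 6 and 7. It was 61, 57 and 215 without R6/2 replicates 1, 3 and 4, and 60, 73, 239 and 63 without Dble::R6/2 replicates 3, 4, 6 and 9. The cause was not tested. None of the 26 named calls changed sign under any alternative, but many were lost. Without the bulb-raised arrays Lipa stayed called and 25 did not, without the arrays against their labelled sex Lipa and Ampd2 stayed and 24 did not, and without either set 26 were lost.

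The bulb covariate ended 13 of the 26 calls, those of Shisa3, Smim10l1, Msi2, Hey2, Nav2, 5530601H04Rik, Map3k1, Dlx2, Pdyn, Lypd4, 1500035N22Rik, Wfdc2 and Got1l1. With that covariate Prm1 1439379_x_at, not called in the main fit, was called at 0.52 (adjusted p = 0.023). The replicate block ended 7, those of Aqp11, Klc1, Pdyn, Lypd4, 1500035N22Rik, Wfdc2 and Got1l1. No moderation of variances ended 6 (Shisa3, Smim10l1, Msi2, Hey2, Dlx2, 1500035N22Rik), quantile normalization 4 (Msi2, Got1l1, Dlx2, Pdyn) and labelled sex as a covariate 2 (Dlx2, 1500035N22Rik).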
